A study of Mus musculus with 8 samples.

Results

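The voltage-gated ion channel genes of the mouse were followed in the open chromatin of medullary thymic epithelial cells (mTECs), the stromal cells that present self-antigens of many tissues to developing T cells in the thymus. Members were chosen by name from the protein-coding genes of GENCODE M21. The names were of pore-forming subunits of voltage-gated potassium channels (Kcna to Kcnd, Kcnf, Kcng, Kcnh, Kcnq, Kcns and Kcnv). Those of sodium (Scn) and calcium (Cacna1) channels were taken too. The Scn names include Scn7a, the gene of Nax, which is counted here with the Nav1 channels. There were 59 such genes among 21938 protein-coding genes. Open chromatin came from ATAC-seq, in which the transposase Tn5 inserts adapters where DNA is free, and the merged peaks of the series formed 57124 accessible regions on the mm10 genome. Of these, 62 had their centre within 5000 bases of a transcription start of a channel gene.

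The series comprised 8 samples, 2 biological replicates each of Tspan8neg MHCIIlow, Tspan8neg MHCIIhigh, Tspan8pos MHCIIlow and Tspan8pos MHCIIhigh mTECs. All groups were wild type, with no treatment given in the labels, and the study's methods give BL6N6 mice at 4 to 6 weeks of age. The number of mice behind a sample is not given in the sources used here. Cells were sorted from the thymus as CD45neg Epcampos CDR1neg and then by the antigen Tspan8 and by MHC class II, which is higher on mature mTECs. The region set is shared by all groups, so what follows is a description of the whole set and says nothing on a single group or replicate. Read counts and depth were not analysed here, because the 8 count columns match the label of no sample. A sort is a bulk sample, so a region seen in few cells and a region weakly open in many cells cannot be told apart.

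Voltage-gated channels open and close with the membrane potential. Sodium channels start the action potential, calcium channels couple it to secretion and contraction, and potassium channels end it and set the resting potential. Their best known sites of expression are neurons, heart and skeletal muscle. The repressor REST, which binds a sequence element called RE1, is known to keep neuronal genes silent outside the nervous system. The medullary thymic epithelium is known to transcribe many tissue-restricted genes at a low level.

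In all, 37 of the 59 genes (62.7%) had a region at the promoter, with its centre between 1000 bases upstream and 100 bases downstream of a start, compared with 48.6% of all protein-coding genes. A further 6 genes (Kcna3, Kcnc1, Kcnv1, Scn1a, Scn11a and Cacna1f) had a region within 5000 bases of a start but not at the promoter. This gave 43 genes (72.9%) near a region, compared with 68.7% of all protein-coding genes. The order of these shares was the other way with regions of at least 200 bases only (55.9%; all genes 62.6%), at the 5′-most start (66.1%; 67.4%) and in a window of 10000 bases (72.9%; 73.1%). The remaining 16 genes had none: Kcna5, Kcna6, Kcna10, Kcnc2, Kcnd1, Kcnf1, Kcng2, Kcng4, Kcns1, Kcnv2, Kcnh5, Scn3a, Scn4a, Scn7a, Scn10a and Cacna1i. Genes are not replicates and no test was made, so these shares are given as a description of the list.

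Examples of the accessible DNA are shown to let the families be compared by sequence. They are stretches of regions that hold no exon, written 5′ to 3′ on the strand of the gene from the GRCm38 reference, the assembly behind mm10. Capitals mark 2 kinds of letters, searched on both strands, with overlapping matches joined: the GC box GGGCGG, a motif bound by Sp factors, and RE1, the letters CAGCACC and GGACAG with 2 bases between them. The ETS letters CCGGAAG and the letters GGGNGTGG of Krüppel-like factors (KLF) were searched too and are absent from these stretches. The first 3 show promoters dense in GC boxes, the next shows a sodium channel promoter with no match, and the last is the intronic region of Cacna1b that holds an RE1.
Kcnq1 chr7:143107017-143107253 (+): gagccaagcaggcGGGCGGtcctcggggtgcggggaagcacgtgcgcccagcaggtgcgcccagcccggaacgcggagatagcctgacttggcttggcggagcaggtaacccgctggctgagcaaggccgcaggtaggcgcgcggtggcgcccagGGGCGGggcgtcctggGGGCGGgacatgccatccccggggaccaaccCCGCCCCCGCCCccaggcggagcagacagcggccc
Scn8a chr15:100870744-100870903 (+): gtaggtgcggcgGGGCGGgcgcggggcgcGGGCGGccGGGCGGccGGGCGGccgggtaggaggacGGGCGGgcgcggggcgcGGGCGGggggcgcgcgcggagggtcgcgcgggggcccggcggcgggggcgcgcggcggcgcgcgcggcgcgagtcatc
Cacna1c chr6:119108574-119108836 (-): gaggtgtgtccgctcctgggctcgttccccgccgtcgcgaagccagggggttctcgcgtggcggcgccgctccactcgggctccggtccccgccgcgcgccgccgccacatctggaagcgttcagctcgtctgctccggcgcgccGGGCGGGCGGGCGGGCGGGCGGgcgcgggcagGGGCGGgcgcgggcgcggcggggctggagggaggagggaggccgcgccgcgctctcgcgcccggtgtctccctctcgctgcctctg
Scn2a chr2:65668523-65668668 (+): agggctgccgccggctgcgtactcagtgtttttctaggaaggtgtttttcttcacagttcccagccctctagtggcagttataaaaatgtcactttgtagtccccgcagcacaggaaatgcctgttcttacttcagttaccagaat
Cacna1b chr2:24761979-24762142 (-): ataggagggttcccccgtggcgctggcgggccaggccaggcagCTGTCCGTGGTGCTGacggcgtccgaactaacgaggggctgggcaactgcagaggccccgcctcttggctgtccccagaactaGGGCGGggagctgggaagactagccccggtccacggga

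**Figure D1:**
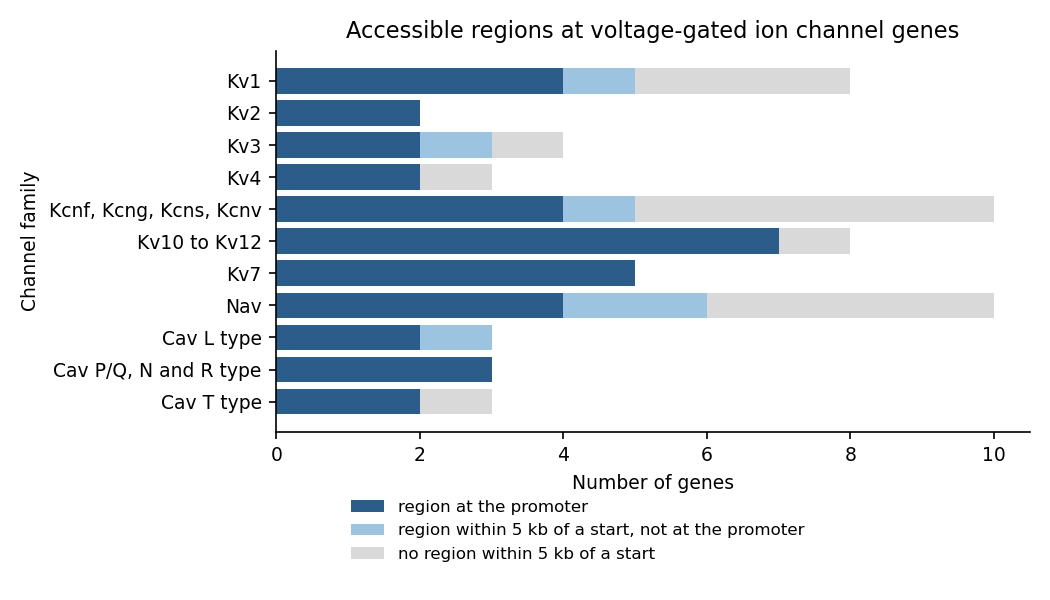
Number of genes (horizontal axis) in each of the 11 channel families (vertical axis), divided into genes with a region at the promoter (dark), with a region within 5 kb of a start only (light) and with none (grey). All 5 Kv7 genes had a promoter region, while 5 of the 10 genes of the Kcnf, Kcng, Kcns and Kcnv families and 4 of the 10 sodium channel genes had no region.

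Among the potassium channels, 29 of 40 genes had a region near a start and 26 had one at the promoter. The Kv7 genes, whose products carry the M current of neurons and a repolarising current of the heart and inner ear, all had a promoter region. The CpG content of the families, which also differed, is given below. Kcnq1, a heart and epithelial channel, had a promoter region at chr7:143107017-143107451, 435 bases wide with its centre 20 bases upstream of a start, and a second region 1753 bases upstream. The stretch of Kcnq1 printed above holds 5 GC boxes. At Kcnq3, a subunit of the M channel, the promoter region (chr15:66286292-66287074) was 783 bases wide, and a second region of 387 bases lay 688 bases downstream over coding sequence. Kcnq5 had a region of 639 bases (chr1:21961189-21961827).

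Of the 8 Kcnh genes, which encode the Kv10 to Kv12 channels of the ether-à-go-go group, 7 had a promoter region and only Kcnh5 had none. Kcnh2, the channel of cardiac repolarisation also known as hERG, had a promoter region at chr5:24351518-24351893 and a second region 3422 bases downstream over an exon. Kcnh1 (chr1:192190621-192191019, 399 bases), Kcnh4 (chr11:100759694-100760122, 429 bases) and Kcnh6 (chr11:106007946-106008153, 208 bases) had regions that covered a start. At Kcnh3 (chr15:99224423-99224855), Kcnh7 (chr2:63184630-63184801) and Kcnh8 (chr17:52602152-52602672) the promoter region lay upstream of every start, with its centre 222, 428 and 297 bases away. The second region of Kcnh4, 1978 bases upstream, was nearer to a start of Hcrt, at 1008 bases, which encodes the neuropeptide hypocretin. Kcnh8 had a second region of 604 bases 1536 bases upstream. This was 1 of only 2 of the 62 channel regions with the ETS letters (3.23%). Of all regions within 5000 bases of protein-coding starts, 17.1% had them.

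The Kv1 genes include those of delayed rectifiers of axons and of some muscle channels. Of 8 genes, 4 had a promoter region and 5 had any region, and the 5 promoter regions were narrow, with a median of 156 bases (112 to 204). Kcna1, the axonal channel mutated in episodic ataxia, had 2 promoter regions, at chr6:126644790-126644958 across 2 starts and at chr6:126645726-126645866. Kcna2 had 1 of 112 bases (chr3:107101584-107101695) and Kcna4 had 1 of 204 bases (chr2:107290426-107290629). Kcna7 had a promoter region of 156 bases (chr7:45405193-45405348) and a region of 833 bases centred 1016 bases downstream over coding sequence. Kcna3, the potassium channel best known in T cells, had a region of 826 bases (chr3:107035942-107036767) that covered its start. Its centre was 185 bases downstream, outside the promoter window.

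Kcna5, Kcna1 and Kcna6 lie in a row on chromosome 6, with 109 and 95.3 kb between neighbouring starts, and Kcna3, Kcna2 and Kcna10 on chromosome 3, with 65.0 and 80.4 kb. In the first cluster only Kcna1 had a region near a start. In the second Kcna2 and Kcna3 had one and Kcna10 did not. Neighbouring genes of a cluster thus differed in the set of regions.

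Among the Kv2 genes, the delayed rectifiers of neuronal cell bodies, Kcnb2 had a region of 497 bases (chr1:15286535-15287031). In the Kv3 family of fast-spiking neurons, Kcnc4 (chr3:107459712-107459795) had a promoter region. At 84 bases, it was the narrowest of the 62. Kcnc1 had a region of 548 bases over its start, centred 132 bases downstream. Kcnc2 had the farthest nearest region of all members, 231450 bases from a start. Of the Kv4 genes, which carry transient A-type currents, Kcnd3 had the widest region of all 62, of 941 bases (chr3:105452095-105453035), and Kcnd2 had a region of 411 bases (chr6:21214709-21215119).

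The Kcnf, Kcng, Kcns and Kcnv genes encode silent subunits, which form no channel alone and modify Kv2 channels. Of the 10 genes, 4 had a promoter region. These were Kcng1 (chr2:168281071-168281155, 85 bases), Kcng3 (chr17:83631612-83632228, 617 bases), Kcns2 (chr15:34837396-34837600, 205 bases) and Kcns3 (chr12:11150221-11150469, 249 bases). Kcnv1 had only an exonic region of 166 bases, 346 bases downstream of its start.

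Of the 10 sodium channel genes, 4 had a promoter region and 6 had any region. Scn8a, a channel of the axon initial segment, had a region of 549 bases (chr15:100870526-100871074) across 4 of its 8 annotated starts, with 9 GC boxes and 84.3% GC. The region of Scn9a, the channel of pain-sensing neurons, was 525 bases wide (chr2:66634535-66635059). At Scn2a, a channel of excitatory neurons, the region was 146 bases wide (chr2:65668523-65668668), and 170 bases upstream of an internal start. With 47.9% GC it had the lowest GC content of the 38 promoter regions. Scn1a and Scn11a each had only a small intronic region, of 159 bases (chr2:66440142-66440300) and 134 bases (chr9:119825274-119825407).

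The sodium channel genes also lie in clusters. On chromosome 9 Scn11a had a region near a start, whereas its neighbour Scn10a had none, the nearest centre being 11978 bases away. Scn10a was the nearest of the 16 members without a region. On chromosome 2 Scn1a, Scn2a and Scn9a had a region, and Scn3a and Scn7a had none. The gene of the skeletal muscle channel, Scn4a, had its nearest region 16093 bases from a start.

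Of the 9 calcium channel genes, 8 had a region and 7 had one at the promoter. Among the L-type genes, Cacna1c, the main channel of heart muscle, had a region of 428 bases (chr6:119108409-119108836) that covered 1 of its 10 annotated starts. Cacna1d, expressed in pacemaker and endocrine cells, had a region of 464 bases (chr14:30353432-30353895) 654 bases upstream of the nearest start. The only region at Cacna1f, the channel of photoreceptors, lay 1726 bases upstream (chrX:7605223-7605524) and was 144 bases from a start of the neighbouring gene Ccdc22. It was also 8 bases from a start of a transcript that is not protein-coding, and it was the farthest from its gene among the nearest regions of members within 5000 bases. All 3 genes of presynaptic and dendritic channels had a promoter region: Cacna1a (P/Q type, chr8:84414577-84414681, 105 bases), Cacna1b (N type, chr2:24763043-24763372, 330 bases) and Cacna1e (R type, chr1:154726715-154727048, 334 bases). Of the T-type genes, whose channels open at low voltage, Cacna1h had a region of 730 bases (chr17:25433703-25434432) and Cacna1g a region of 281 bases (chr11:94474273-94474553), while Cacna1i had none.

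**Figure D2:**
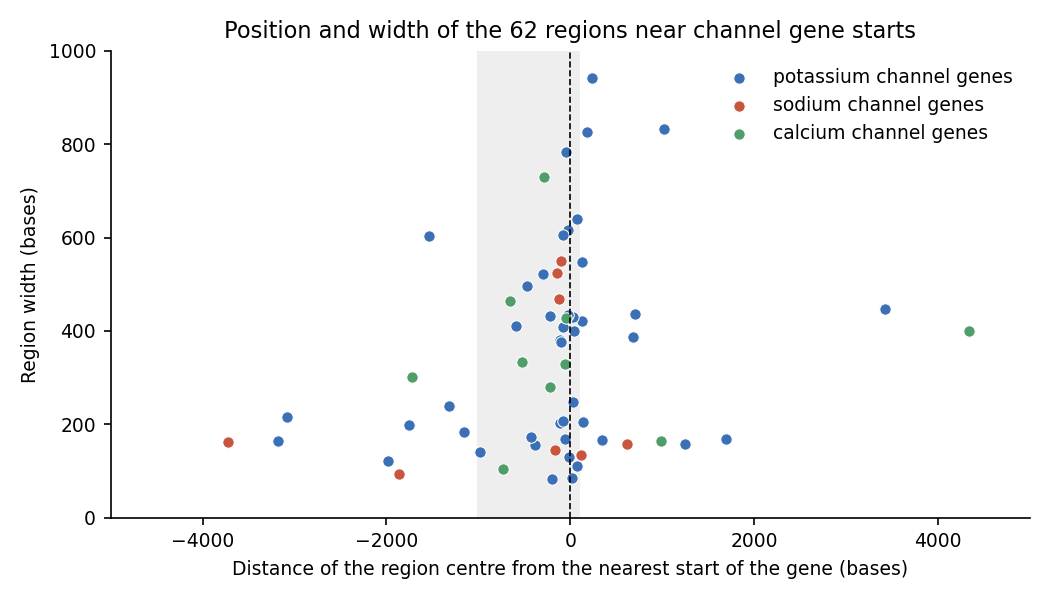
Width (vertical axis, bases) against the distance of the centre from the nearest start of its gene (horizontal axis, bases, upstream negative) for the 62 regions, coloured by channel class. The grey band is the promoter window around that start, and a region may lie in the window of another start of the same gene. Widths run from 84 to 941 bases, and 47 of the 62 centres lie within 1000 bases of a start.

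Most channel regions had their centre upstream of the nearest start. This was so for 40 of 62 regions (64.5%), compared with 46.7% of such regions at all protein-coding genes. The median distance was 228.5 bases, compared with 173 bases. A start was covered by 25 of the 62 regions, at 24 genes. Of the promoter regions 22 of 38 covered a start, compared with 9401 of 10681 over all protein-coding genes. In the annotation, 30 regions touched an untranslated part of an exon, 4 touched only other exons, 10 were intronic and 18 lay outside the gene.

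**Figure D3:**
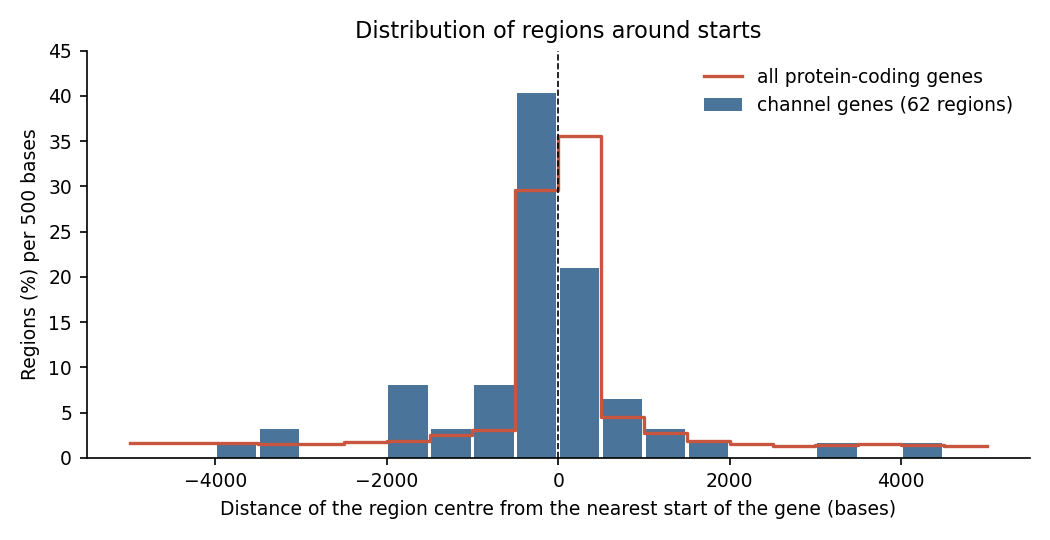
Percentage of regions per 500 bases (vertical axis) by distance of the centre from the nearest start (horizontal axis, bases, upstream negative) for channel genes (bars) and all protein-coding genes (line). The bin just upstream of the start held 40.3% of channel regions and 29.6% of all, and the bin just downstream held 21.0% and 35.6%.

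How the channel genes compared with all genes changed with the definition of a promoter region. When a region had to overlap a start, 24 of 59 channel genes (40.7%) had one, below the 56.4% of all protein-coding genes. When only the 5′-most start of each gene was used, 23 channel genes (39.0%) and 39.2% of all had a promoter region. Of all protein-coding genes, 10669 had one at any start and 8594 at the 5′-most start. The other 14 of the 37 channel genes had a promoter region at another start only. Among them were Kcna2, Kcnd3, Kcns2, Kcns3, Kcnq5, Scn2a, Scn8a, Scn9a, Cacna1c, Cacna1d and Cacna1e. Split by the number of annotated starts, 11 of 24 channel genes with 1 start (45.8%; all genes 38.4%), 15 of 22 with 2 (68.2%; 50.5%) and 11 of 13 with 3 or more (84.6%; 69.5%) had a promoter region.

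**Figure D4:**
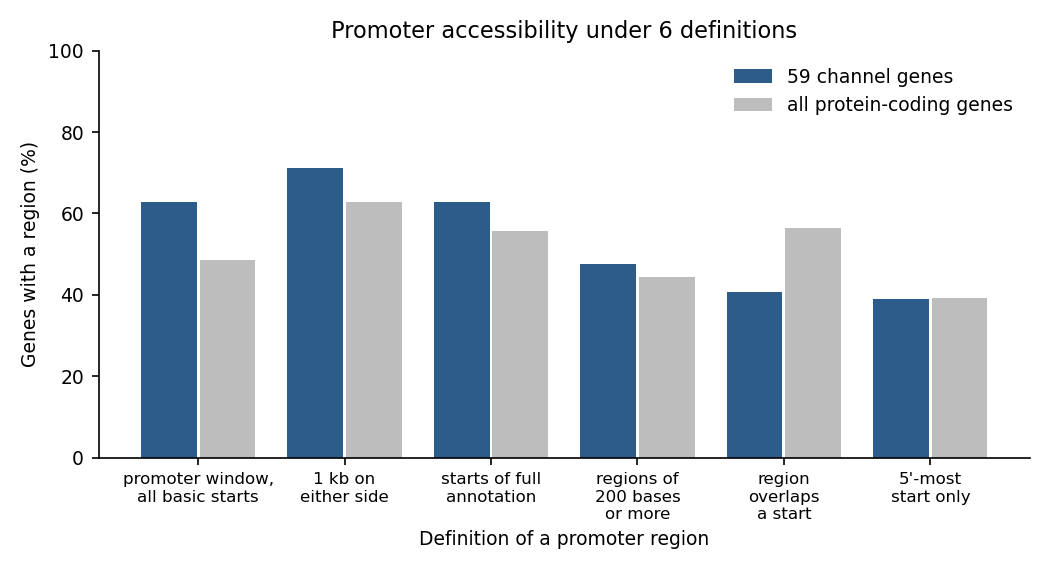
Percentage of genes with a promoter region (vertical axis) under 6 definitions (horizontal axis) for the 59 channel genes (blue) and all protein-coding genes (grey). Channel genes are higher in the promoter window (62.7% and 48.6%), lower where the region must overlap a start (40.7% and 56.4%), and level at the 5′-most start (39.0% and 39.2%).

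The channel genes fell into members with a region close to a start and members far from any. No member had its nearest region between 2000 and 10000 bases from a start, compared with 1875 of all protein-coding genes (8.55%). Inside the limit of 5000 bases the farthest were Cacna1f at 1726, Cacna1a at 735 and Cacna1d at 654 bases. Outside it the nearest were Scn10a at 11978, Scn4a at 16093 and Kcna5 at 16779 bases.

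Members with and without a region also differed in the CpG content of the promoter, though the 2 sets overlapped. A gene was called CpG-rich where the window of any of its starts had at least 55% GC and a ratio of observed to expected CpG of at least 0.6. Of the channel genes 25 of 59 (42.4%) were CpG-rich, compared with 20.1% of all protein-coding genes. Of these 25, 23 (92.0%) had a promoter region, close to the 89.3% of all CpG-rich genes, and the other 2, Kcna3 and Kcnc1, had a region over the start. Of the 34 channel genes that were not CpG-rich, 14 (41.2%) had a promoter region, compared with 38.4% of all such genes. Within each class the promoter share of channel genes was thus near the background. By family, CpG-rich genes were 4 of 5 in Kv7, 2 of 2 in Kv2, 2 of 4 in Kv3 and 2 of 3 in Kv4. They were 7 of 9 among calcium channels, 3 of 10 among silent subunits and 2 of 10 among sodium channels. In Kv1 they were 1 of 8 and in Kv10 to Kv12 2 of 8. A region was near a start of all 25 CpG-rich channel genes (100%; all CpG-rich genes 97.7%). In the second class it was near a start of 18 of 34 (52.9%; all such genes 61.4%). All 16 members without a region were of the second class. The median of their ratios, taking the highest over the starts of a gene, was 0.335, compared with 0.706 in the 37 with a promoter region, and their highest was 0.529. Ratios below 0.529 also occurred with a region. The lowest was 0.355 among members with a promoter region (Kcna4) and 0.190 among those with any region (Cacna1f).

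**Figure D5:**
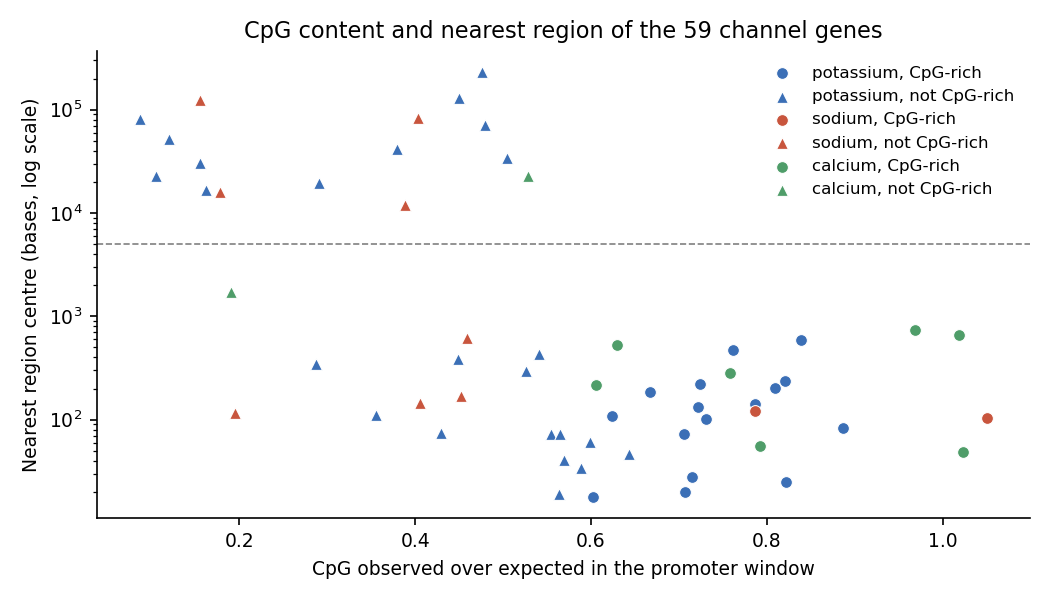
Distance from a start to the nearest region centre (vertical axis, bases, log scale) against the ratio of observed to expected CpG in the promoter window (horizontal axis) for the 59 channel genes, with circles for CpG-rich promoters, triangles for the others and a dashed line at 5 kb. All 25 CpG-rich genes lie below the line (97.7% of all CpG-rich protein-coding genes have a region within 5 kb). The 16 genes above it have ratios of at most 0.529, a range that some genes below the line share.

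Promoter regions of channel genes ranged from 84 to 941 bases in width. The median width of the 38 regions was 390 bases (quartiles 180 and 490), compared with 509 bases (324 and 722) over all promoter regions of protein-coding genes. Regions under 200 bases made up 26.3%, compared with 12.9%. The 2 sets differed in how many regions covered a start, at 22 of 38 and 9401 of 10681. Where a start was covered the median width was 428.5 bases, compared with 549 bases over all. Where none was covered the order was the other way, at 204.5 and 164 bases. Median widths were 156 bases in Kv1, 227 bases in the silent subunits, 399 bases in Kv10 to Kv12, 497 bases in the sodium channels and 605 bases in Kv7. Median GC content was 73.8%, compared with 65.3%.

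Sequence letters were counted because ETS and Krüppel-like factors are a subject of the study. The ETS letters CCGGAAG occurred in 1 of the 38 channel promoter regions (2.63%), that of Kcnd3, compared with 22.6% of all promoter regions. Among regions of 180 to 490 bases the letters were in 0 of 18 channel regions and 17.9% of all. Among regions of at least 70% GC they were in 1 of 26 (3.85%) and 18.1%. In regions that covered a start the values were 1 of 22 (4.55%) and 25.2%, and in those that covered none 0 of 16 and 3.75%. The shorter letters CGGAA were in 8 channel regions (21.1%; all 60.0%) and GGAAG in 23 (60.5%; all 81.3%). The KLF letters GGGNGTGG were in 13 regions (34.2%), level with 34.4% of all. The GC box GGGCGG was in 33 (86.8%), compared with 77.1%. Among regions of at least 70% GC the shares were nearly level, at 25 of 26 (96.2%) and 94.5% of all. Among regions of 180 to 490 bases the GC box was in 18 of 18 and 69.3%. In regions that covered a start it was in 21 of 22 (95.5%) and 82.8%, and in those that covered none 12 of 16 (75%) and 35.2%. Letter matches do not show that a factor was bound.

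The RE1 letters were found within 5000 bases of a start of 3 channel genes (5.08%), compared with 159 of all protein-coding genes (0.725%). Sites that differ from these letters were not searched for. The 3 sites are shown on the plus strand of GRCm38.
Cacna1b chr2:24762085-24762099: CAGCACCACGGACAG
Scn2a chr2:65619966-65619980: CAGCACCACGGACAG
Kcnh4 chr11:100759011-100759025: CTGTCCAGGGTGCTG
The sites of Cacna1b and Scn2a have the same 15 letters. Only the site of Cacna1b lay in an accessible region, 955 bases downstream of a start and in an intron of the N-type calcium channel gene. That region, printed above, was 164 bases wide (chr2:24761979-24762142), and the site lay 32 bases from its centre. The site of Kcnh4 was also intronic, 890 bases from the nearest region centre, and that of Scn2a lay outside the gene at -798 bases from a start, with the nearest region centre 48622 bases away. The letters thus occurred in 1 of the 62 channel regions (1.61%), compared with 0.208% of all regions within 5000 bases of protein-coding starts. Over all 57124 regions they occurred in 0.0998%.

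Beyond 5000 bases from the starts of the gene itself, 106 regions lay in the bodies of 25 of 59 channel genes. Of all protein-coding genes, 6692 of 21938 held such a region. Starts of other genes were not considered. Kcnq1 held 15 of the 106 regions over 321 kb (4.68 per 100 kb) and Cacna1d held 11. Kcnq3 and Kcnq5 each held 8, and Kcnh1 and Cacna1b each held 7. Long genes differed widely, since Kcnd2 had 0 over 514 kb and Kcnh7 had 1 over 491 kb. Of the 24 members of at least 100 kb, 16 held such a region, compared with 2100 of 2492 protein-coding genes of that length. Pooled over these 24 members there were 1.29 such regions per 100 kb, compared with 1.79 in all protein-coding genes of that length.

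Channel proteins are assembled with auxiliary subunits, and a list of 33 such genes was described in the same way. A region was near a start of 27 (81.8%) and at the promoter of 18 (54.5%), where all protein-coding genes had 68.7% and 48.6%. Promoter regions were found at 8 of 13 potassium, 2 of 4 sodium and 8 of 16 calcium channel partners. Cacna2d1, the calcium channel subunit bound by gabapentin, had a region of 895 bases (chr5:15934366-15935260), the widest of the 24 promoter regions in the list. Of the sodium channel partners Scn3b (chr9:40269120-40269779, 660 bases) had a region 16 bases from a start, whereas Scn2b and Scn4b had regions outside the promoter only. Cacna2d4, Cacng5, Cacng6, Kcnab1, Kcne1 and Kcne2 had none.

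Marker lists of cell types were described in the same way. They were chosen with earlier results of these data known, so they are no independent check of the sort. Over all protein-coding genes 48.6% had a promoter region and 68.7% a region within 5000 bases. A promoter region was present at 10 of 10 mTEC genes and at 0 of 8 thymocyte genes, of which 1, Lck, had a region within 5000 bases. It was present at 4 of 6 neuronal, 1 of 6 muscle (Actn2) and 0 of 6 neuroendocrine genes, although 6 of 6 neuroendocrine genes had a region near a start. The part of other cell types in the regions at channel genes was not tested.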

How the data were processed

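ATAC-seq libraries of sorted mTECs were aligned to mm10 by the authors with Bowtie2, filtered for mitochondrial, multimapping, low-quality and duplicate reads with SAMtools and Picard, and broad peaks were called with MACS2 and merged with bedtools. The sources used here do not state if peak calling was done on each sample or on a pool. The deposited start, end and width of each merged region, counted in bases, were used. A table column names no group, so region presence and width depend on merging across all samples. The table's 8 count columns (featureCounts 2.0.3 per the file header) match no label and were used in no step, and the planned edgeR comparison of the groups was not run.

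Starts came from the basic set of GENCODE M21. A gene has a region near it within 5000 bases and at the promoter from 1000 bases upstream to 100 downstream, by the region's centre. CpG content was taken over this promoter window, at any start of the gene. Distances and letter searches were tested on simulated data. The members and lists were chosen with earlier results of these data known. Genes named with values were those with a promoter region, with at least 3 regions, or nearest to a region in their family. Some of these are not reported here. Other named features were chosen after their values were seen. Python 3.11.15, numpy 2.4.6, pandas 2.3.3, pysam 0.24.0 and matplotlib 3.10.9 were used.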

Additional observations from a re-analysis of the deposited data

How the results depend on the processing

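No paired analysis was possible because no count column could be matched to a sample. This also kept the planned replicate block, DESeq2, its size factors, the fit with no filter and leaving out replicates from being run. Of 19 alternatives, 13 gave a value within its limit, which was 1.5 times for counts and widths and the Wilson interval for the share of CpG-rich genes. The number of channel genes with a promoter region, 37, was 24 where a region had to overlap a start and 23 at the 5′-most start. It was 28 with regions of at least 200 bases (47.5%; all genes 44.4%). The 62 regions became 40 with regions of at least 200 bases. Genes near a region were 33 with that minimum (55.9%; all genes 62.6%), with Kcna1, Kcna2 and Scn2a among those lost, 39 at the 5′-most start (66.1%; 67.4%) and 42 or 43 otherwise. After seeing the data, shorter ETS letters gave 8 and 23 regions in place of 1, and a CpG ratio of at least 0.75 gave 14 of 14 genes (100%; all genes 91.8%) in place of 92.0%. Depth per sample is not analysed here, so a missing region does not show closed chromatin.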
